A study of Mus musculus with 2 samples.

Results

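The mu-class glutathione transferase genes *Gstm1* to *Gstm7* were examined in hematopoietic stem cells (HSCs). All 7 symbols were found among the 24421 gene symbols of the count files. The family was chosen by the measured counts themselves, because *Gstm2* had one of the deepest drops in the library labelled Ezh2 KO, so every ratio between the libraries is given as a description and without a test.

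Glutathione transferases couple the tripeptide glutathione to reactive, electron-poor compounds, which can then be exported or broken down. The cytosolic enzymes work as dimers and are grouped in classes by sequence, of which the mu class is encoded in mice by a cluster of neighbouring genes. The glutathione they consume is made by glutamate-cysteine ligase and glutathione synthetase, and many genes of this system are targets of NRF2, a CNC family transcription factor that is released from KEAP1 when electrophiles accumulate.

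The series held 1 WT library, from donors genotyped Ezh2 +/+ CreERT+/-, and 1 library labelled Ezh2 KO, from donors genotyped Ezh2 Δ/Δ CreERT+/-, both of strain C57BL/6. CD45.2 marrow of Cre-ERT;Ezh2+/+ or Cre-ERT;Ezh2fl/fl mice had been placed in lethally irradiated CD45.1 recipients. The tamoxifen course in the labels was 100 µl at 10 mg/ml a day for 5 days, and lineage-negative Sca-1+ c-kit+ cells that were CD150+ CD48- CD34- Flt3- were sorted 1 month afterwards. The promoter that drives Cre-ERT, the age and number of the mice and any sort of donor from host cells are not given in the sources used here. Neither group was replicated, so differences could not be set against the spread between mice. Only counting error enters the intervals and floors given here, because each group has 1 library. Amplified reads that carry no molecular identifier need not be separate molecules, so even as counting error the intervals may be too narrow.

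Gene totals were 5763118 counts in WT against 4157280 in the library labelled Ezh2 KO. *Ezh2*, the methyltransferase gene that was to be deleted, had 166 counts in WT against 129 in the library labelled Ezh2 KO, which gives a log2 ratio of 0.08 (95% interval -0.27 to 0.42). Every log2 ratio is the library labelled Ezh2 KO over WT, on the scale of log2(normalised count + 1), with counts normalised by size factors of 1.17 for WT and 0.858 for the other library. Whole-gene counts do not show a lost exon, so the label could not be checked in this way. All 10 HSC markers examined, among them *Kit*, *Ly6a* and *Slamf1*, were detected in both libraries, with a summed level of 3892 and 4159 CPM, where CPM is a count as parts per 1e6 of all gene counts of its library. Of the 3 genes whose proteins were sorted against, *Flt3* was at 17.0 and 33.7 CPM (log2 ratio 0.95, 0.57 to 1.34), *Cd34* at 166 and 199 CPM (0.23, 0.10 to 0.37) and *Cd48* at 2.08 and 2.65 CPM (0.29, -1.01 to 1.62). The libraries also stood apart in other ways. *Xist* had 801 counts in WT against 4 in the library labelled Ezh2 KO, whereas the Y-linked *Ddx3y* had 0 and 275. The 8 eosinophil markers summed to 2.08 CPM in WT against 775 CPM in the library labelled Ezh2 KO. Of these, 6 were higher by at least 2-fold and 5 (*Prg2*, *Epx*, *Prg3*, *Ear1* and *Ear2*) were at 0 in WT. The 8 neutrophil markers (5 higher, none at 0) summed to 1846 and 3672 CPM. Their direction was mixed, because *Elane* was lower, with a log2 ratio of -0.76 (-0.94 to -0.58). *S100a9* and *Mpo*, also not past 2-fold, had log2 ratios of 0.96 and 0.22. The 5 megakaryocyte markers (1 lower, none at 0) summed to 556 and 289 CPM. In this list *Vwf*, *Itga2b* and *Pf4* had log2 ratios of -1.59, -0.68 and -0.65. *Gp9* and *Gp1bb* did not fall, with log2 ratios of 0.17 (-0.14 to 0.48) and 0.11 (-0.62 to 0.83). Erythroid markers summed to 48.9 and 184 CPM (4 of 6 higher by at least 2-fold), B lymphoid markers to 48.4 and 88.8 CPM (3 of 7) and T and NK markers to 20.1 and 36.6 CPM (2 of 5). Endothelial and stromal markers summed to 65.4 and 101 CPM with 1 of 6 higher, and *Cdh5* among them was at 0 in both libraries. Macrophage markers were at 25.2 and 23.8 CPM (2 of 5 higher and 1 lower), and mast cell and basophil markers at 2.60 and 5.05 CPM (0 of 4 past 2-fold). The part of sex or of other cells in the Gstm values was not tested, and in bulk RNA fewer cells of a type and less RNA per cell cannot be told apart.

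The 7 genes lie within 149 kb of chromosome 3 (mm10 107895821 to 108044894). In chromosome order they are *Gstm5* (107895821 to 107898686), *Gstm7* (107926334 to 107931817), *Gstm6* (107938847 to 107943749), *Gstm3* (107963696 to 107969283), *Gstm2* (107981702 to 107986453), *Gstm1* (108012255 to 108017973) and *Gstm4* (108040408 to 108044894). *Gstm5* is on the plus strand and the other 6 are on the minus strand. Each principal transcript in GENCODE M21 has 8 exons. The coding sequence, stop codon included, is 675 bases long in *Gstm5* and 657 bases in each of the others.

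How alike the members are decides whether a read of about 60 bases can be placed, so the coding sequences were aligned. Identity ran from 69.1% between *Gstm3* and *Gstm5* to 89.5% between *Gstm1* and *Gstm3*. *Gstm2* was 86.0% identical to *Gstm1*, with 60 identical bases in a row as the longest stretch, and 85.5% identical to *Gstm6*. The 60-base stretch most alike across the 7 genes, coding bases 203 to 262 of *Gstm2*, shows how few positions can separate them. Capitals mark bases that are unlike *Gstm2* at the same place in the alignment.
*Gstm1*: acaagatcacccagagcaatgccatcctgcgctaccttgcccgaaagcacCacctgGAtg
*Gstm2*: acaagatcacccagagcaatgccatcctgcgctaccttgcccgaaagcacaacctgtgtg
*Gstm3*: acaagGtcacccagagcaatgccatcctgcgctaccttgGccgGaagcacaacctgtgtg
*Gstm4*: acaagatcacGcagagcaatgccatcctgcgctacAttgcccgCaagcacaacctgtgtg
*Gstm5*: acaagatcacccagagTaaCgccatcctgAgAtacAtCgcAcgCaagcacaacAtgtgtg
*Gstm6*: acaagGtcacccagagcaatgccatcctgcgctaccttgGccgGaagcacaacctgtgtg
*Gstm7*: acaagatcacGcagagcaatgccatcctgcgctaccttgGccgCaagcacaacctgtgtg
In this stretch 5 of the other members were unlike *Gstm2* at 3 bases and *Gstm5* at 9. *Gstm3* and *Gstm6* share the same letters here.

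The 60-base stretch least alike lies at the very end of the coding sequence, bases 598 to 657 of *Gstm2*, and is shown because reads from it can be told apart.
*Gstm1*: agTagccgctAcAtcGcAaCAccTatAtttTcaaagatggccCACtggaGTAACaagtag
*Gstm2*: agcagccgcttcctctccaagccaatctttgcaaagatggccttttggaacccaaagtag
*Gstm3*: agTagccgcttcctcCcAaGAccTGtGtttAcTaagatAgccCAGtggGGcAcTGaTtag
*Gstm4*: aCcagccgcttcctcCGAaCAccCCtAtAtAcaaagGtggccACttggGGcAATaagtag
*Gstm5*: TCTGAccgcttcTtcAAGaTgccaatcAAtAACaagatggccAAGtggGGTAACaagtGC
*Gstm6*: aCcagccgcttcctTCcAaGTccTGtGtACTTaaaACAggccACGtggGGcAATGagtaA
*Gstm7*: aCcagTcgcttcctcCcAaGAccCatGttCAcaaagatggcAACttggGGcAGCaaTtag
Here the others were unlike *Gstm2* at 18 (*Gstm1*) to 26 bases (*Gstm5* and *Gstm6*).

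Each principal transcript was then cut into all of its 60-base windows, and each window was looked up in the annotated transcripts of every other gene, on both strands. In *Gstm2*, 65 of 1005 windows (6.47%) also occurred elsewhere, in *Gstm1* or in the pseudogenes *Gm6665* and *Gm12499*. *Gstm1* shared 238 of 1230 windows (19.3%) with *Gstm2*, *Gstm3* and pseudogenes. *Gstm3* had the highest share, with 325 of 1252 windows (26.0%). *Gstm6* shared 9.14% of its windows, and *Gstm4* and *Gstm7* shared 0 of 1648 and 0 of 1318. *Gstm5* shared 119 of 886 windows (13.4%) only with *4933431E20Rik*, an antisense gene that overlaps its first exon, so reads there are uncertain if strand was not used in counting. Within 2 mismatches of another Gstm gene or related pseudogene, the shares were 46.4% for *Gstm1*, 47.8% for *Gstm3*, 18.0% for *Gstm2*, 14.8% for *Gstm6* and at most 2.49% for the rest. Windows in the genome outside annotated transcripts were not examined. Reads with more than one alignment are listed apart from the gene counts.

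*Gstm1* was by far the most abundant member in both libraries. Per length, it stood at 369.1 CPM per kilobase of transcript in WT against 389.8 in the library labelled Ezh2 KO, which ranked it 155 of 13584 and 160 of 13482 genes with a count and a known length. *Gstm5* followed in both libraries (64.6 and 82.7 CPM per kilobase). In WT *Gstm2* was next at 51.5, ahead of *Gstm7* (33.1) and *Gstm4* (32.8), which were close to each other. In the library labelled Ezh2 KO the order after *Gstm5* was *Gstm7* (29.5), *Gstm4* (24.8) and then *Gstm2* (10.9). *Gstm2* thus moved from rank 1884 to rank 6306 of all genes per length. *Gstm6* was low in both (4.21 and 5.01). When levels were counted per kilobase of windows found in no other gene, *Gstm1* was at 479.6 and 506.5 and *Gstm2* at 58.3 and 12.3, and the order of the members was the same.

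*Gstm3* had 0 counts in both libraries. With 3 counts as the smallest detectable number, this allowed up to 0.397 CPM per kilobase in WT and 0.550 in the other library. Of its 1252 windows, 927 occurred in no other annotated gene, and whether reads from it were left uncounted was not tested.

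*Gstm2* had 316 counts in WT against 48 in the library labelled Ezh2 KO. After normalisation these were 271.2 and 55.9 normalised counts, with exact Poisson intervals of 242.1 to 302.8 and 41.2 to 74.2. The log2 ratio was -2.26 (95% interval -2.75 to -1.84), a level 4.78-fold lower. It was the only Gstm gene past 2-fold. Of all 12588 genes with a mean of at least 1 CPM, 3.9% were lower and 4.91% higher by at least 2-fold, shares that are printed for scale only because this contrast chose the family. The ratio of *Gstm2* was the 98th lowest of these genes. Among the 4718 genes with at least as many normalised counts in WT, 2 had a ratio at or below that of *Gstm2*, namely *Gstm2* itself and *Xist*.

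**Figure D1:**
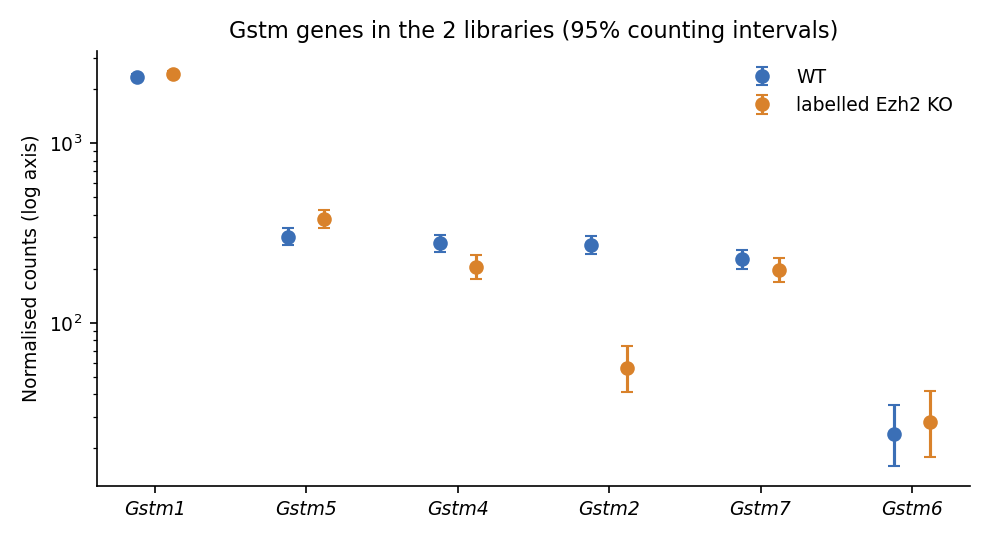
Normalised counts (log axis) of the 6 Gstm genes that were detected, in WT (blue) and the library labelled Ezh2 KO (orange), with exact 95% Poisson intervals of 1 library each. *Gstm2* drops from 271.2 to 55.9, while the points of *Gstm1* lie close together at 2353 and 2434.

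The other members differed by less than 1.5-fold. *Gstm1* had 2742 and 2089 counts, or 2353 and 2434 normalised counts, and a log2 ratio of 0.05 (-0.03 to 0.13). *Gstm4* had 323 and 176 counts, or 277.2 and 205.1 normalised counts, and a log2 ratio of -0.43 (-0.71 to -0.17). The normalised level of *Gstm4* in WT was thus nearly that of *Gstm2*, but it remained at 205.1 where *Gstm2* was at 55.9. *Gstm5* went the other way, with 352 and 325 counts, 302.1 and 378.7 normalised counts and a log2 ratio of 0.33 (0.10 to 0.55). *Gstm7* had 263 and 169 counts and a log2 ratio of -0.20 (-0.48 to 0.09). *Gstm6*, with only 28 and 24 counts, had a log2 ratio of 0.21 with a wide interval of -0.63 to 1.06. Of the 6 members that passed the filter, 3 had an interval that left out 0, as did 40.0% of all genes tested, so counting error alone is a weak yardstick here.

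**Figure D2:**
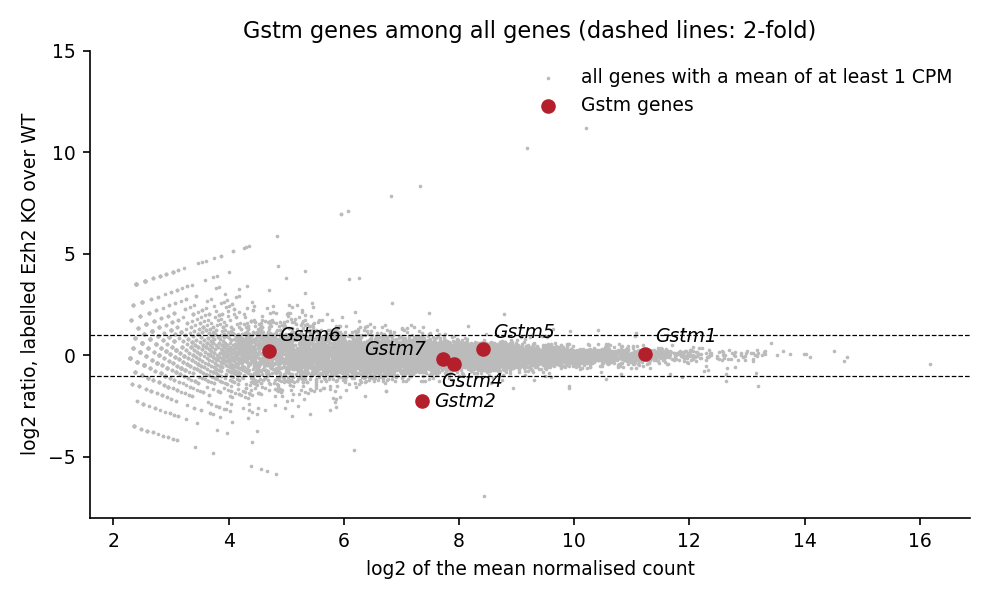
Log2 ratio (library labelled Ezh2 KO over WT) against the log2 mean normalised count for the 12588 genes with a mean of at least 1 CPM (grey) and the 6 Gstm genes that passed this filter (red). Dashed lines mark 2-fold, and *Gstm2* at -2.26 is the only red point beyond them.

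A sum over the members does not depend on how the counted reads were divided among them. The 7 genes summed to 4024 and 2831 counts, which scale to 3453 and 3299 normalised counts. The log2 ratio of the sum was -0.07 (-0.14 to 0.004), and it was 0.027 (-0.04 to 0.10) without *Gstm2* and -0.35 (-0.48 to -0.22) without *Gstm1*. The family made up 0.0698% and 0.0681% of all gene counts. In normalised counts *Gstm2* was lower by 215.2 and *Gstm4* by 72.1, whereas *Gstm1* was higher by 81.3 and *Gstm5* by 76.7.

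The make-up of the family shifted accordingly, and these shares do not depend on scaling between libraries. *Gstm2* supplied 7.85% of Gstm counts in WT (exact interval 7.04% to 8.73%) against 1.70% in the library labelled Ezh2 KO (1.25% to 2.24%). *Gstm1* supplied 68.1% (66.7% to 69.6%) and 73.8% (72.1% to 75.4%). The share of *Gstm5* was 8.75% (7.89% to 9.66%) and 11.5% (10.3% to 12.7%), and that of *Gstm4* was 8.03% (7.21% to 8.91%) and 6.22% (5.36% to 7.17%). Against *Gstm1* as the internal reference, the log2 odds ratio was -2.33 for *Gstm2* (exact conditional interval -2.80 to -1.88), -0.48 for *Gstm4* (-0.77 to -0.20), -0.25 for *Gstm7* (-0.55 to 0.05), 0.17 for *Gstm6* (-0.68 to 1.01) and 0.28 for *Gstm5* (0.04 to 0.51).

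**Figure D3:**
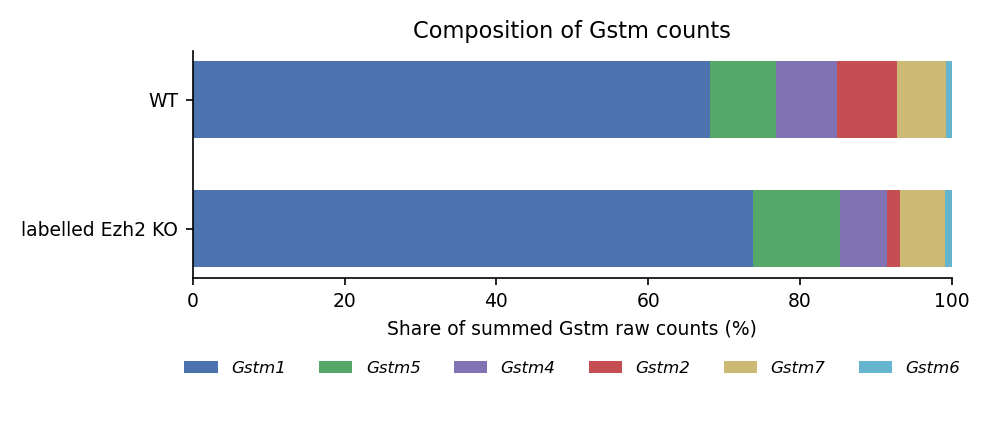
Share (%) of the summed raw Gstm counts that came from each member, 1 bar per library. The *Gstm2* segment (red) is 7.85% in WT and 1.70% in the other library, and the *Gstm1* segment (blue) from 68.1% to 73.8%.

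The windows from 250 bases before to 50 bases after the annotated start, as given by RefSeq on GRCm38.p6, are shown for the members with the lowest and the highest ratio. All 7 members were matched by symbol, with 12 windows in all. Both strands were searched for TGACNNNGC, the core of the antioxidant response element that NRF2 binds with small MAF partners, and for TGANTCA, the site of AP-1, and capitals mark each match. The 2 patterns were found in 12.4% and 7.81% of 32851 promoter windows of the same length.

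The *Gstm2* window, chr3:107986371-107986670 on the minus strand, held neither pattern and 3 CpG dinucleotides, against a median of 7 over all windows.
*Gstm2*: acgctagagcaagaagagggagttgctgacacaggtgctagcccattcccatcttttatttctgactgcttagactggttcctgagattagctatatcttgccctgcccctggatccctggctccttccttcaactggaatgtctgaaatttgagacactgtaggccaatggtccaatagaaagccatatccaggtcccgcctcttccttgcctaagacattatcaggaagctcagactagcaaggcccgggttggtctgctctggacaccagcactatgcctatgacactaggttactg
The *Gstm5* window, chr3:107895604-107895903 on the plus strand, held 1 match to each pattern, with the leftmost letter 42 (TGACNNNGC) and 176 bases (TGANTCA) before the start, and 18 CpG dinucleotides.
*Gstm5*: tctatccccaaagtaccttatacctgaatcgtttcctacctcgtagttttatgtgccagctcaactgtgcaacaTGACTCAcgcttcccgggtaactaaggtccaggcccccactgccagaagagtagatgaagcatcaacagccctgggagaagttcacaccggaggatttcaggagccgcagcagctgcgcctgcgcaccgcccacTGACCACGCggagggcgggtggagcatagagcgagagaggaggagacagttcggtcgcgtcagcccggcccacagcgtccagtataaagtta
Of the other windows, 1 of the 2 for *Gstm7* held TGACNNNGC, and those of *Gstm1*, *Gstm3*, *Gstm4* and *Gstm6* held neither. Their CpG counts ran from 4 (*Gstm6*) to 14 (*Gstm1* and *Gstm4*). A match is a description of letters and not of binding.

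The drop of *Gstm2* was next set beside the neighbourhood of the cluster. Within 500 kb of either end, 26 other genes of the files had a position, and 18 of them had a mean of at least 1 CPM. Of these 18, 0 were lower and 1 was higher by at least 2-fold, beside 3.9% and 4.91% of all genes tested. With so few genes, such counts cannot set the neighbourhood apart from all genes. The median log2 ratio was -0.18, against -0.003 over all genes tested. *Eps8l3*, the nearest gene on the side of *Gstm5*, had 21 and 9 counts and a log2 ratio of -0.73 (-2.09 to 0.41). *Ampd2*, the adenosine monophosphate deaminase gene nearest to *Gstm4*, had 2352 and 1278 counts and a log2 ratio of -0.44 (-0.54 to -0.34). Both ratios were below 0 and smaller drops than that of *Gstm2*. The interval of *Ampd2* lay apart from that of *Gstm2* (-2.75 to -1.84), whereas the wide interval of *Eps8l3* overlapped it. The antisense gene *4933431E20Rik* had 76 and 47 counts and a log2 ratio of -0.25 (-0.81 to 0.29), the opposite sign to *Gstm5*, which it overlaps. The gene higher by at least 2-fold was *Gm12522*, a noncoding transcript 334 kb away, with 2 and 13 counts and a log2 ratio of 2.57 (1.00 to 6.33).

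**Figure D4:**
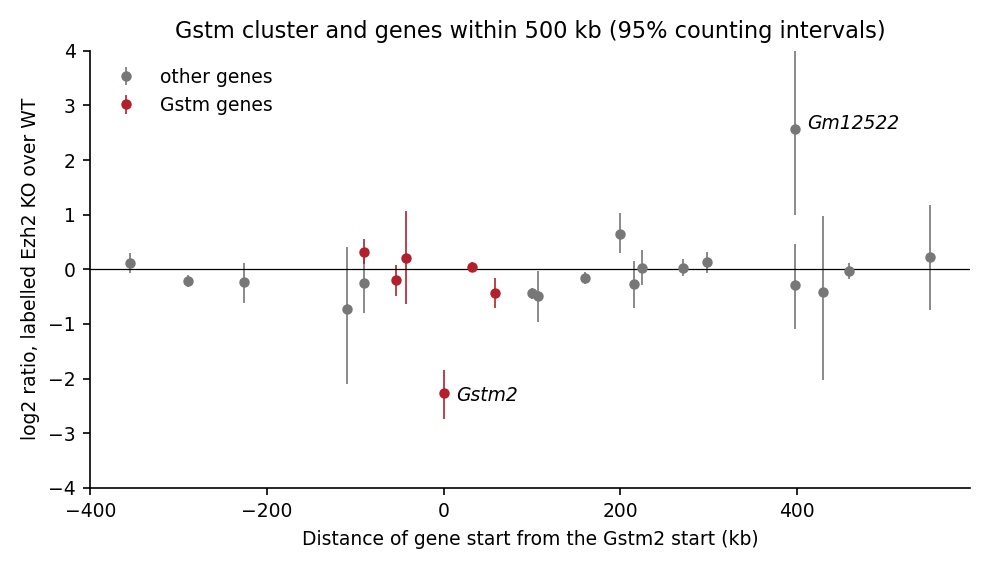
Log2 ratio with 95% counting interval against the distance of each gene start from the *Gstm2* start (kb), for the 6 Gstm genes (red) and the 18 other genes (grey) with a mean of at least 1 CPM. *Gstm2* lies at -2.26 while the other red points lie between -0.43 and 0.33. The axis ends at 4, so the interval of *Gm12522* runs past it.

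The other glutathione transferases and related membrane proteins were set beside the Gstm genes. Of 22 such genes in the files, 17 had a mean of at least 1 CPM. Of these, 0 were higher and 1 was lower by at least 2-fold, beside 4.91% and 3.9% of all genes tested. The median log2 ratio was -0.09. The gene past 2-fold was *Gsto2*, an omega-class enzyme with 15 and 4 counts and a log2 ratio of -1.29, whose interval of -3.51 to 0.18 includes 0. *Gsto1*, the abundant omega-class enzyme, had 1410 and 1056 counts and a log2 ratio of 0.02. *Alox5ap*, which encodes the protein that activates 5-lipoxygenase, had 888 and 711 counts (log2 ratio 0.12), and the pi-class gene *Gstp1* 429 and 297 (-0.09). Levels per length were summed over these genes, *Alox5ap* included, and the Gstm genes. *Gstm1* alone made up 31.0% of this sum in WT against 32.7% in the library labelled Ezh2 KO. All Gstm genes together made up 46.7% and 45.6%.

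Genes that make, recycle and spend glutathione were listed next. Of 31 such genes, 27 had a mean of at least 1 CPM, of which 0 were higher and 2 were lower by at least 2-fold, beside 4.91% and 3.9% of all genes tested, with a median log2 ratio of -0.05. The counting interval left out 0 for 13 of the 27, with 9 below and 4 above 0, beside 40.0% of all genes. *Gpx8*, a glutathione peroxidase of the endoplasmic reticulum, had 17 counts in WT against 0 in the other library. With the floor of 3 counts put in place of the 0, the level was 4.17-fold lower, without the counting error of the WT count. The counting interval of the log2 ratio had its upper end at -1.60, which allows a drop of only 3.04-fold. *Ggt5*, a gamma-glutamyltransferase, had 145 and 52 counts and a log2 ratio of -1.03 (-1.52 to -0.57). *Gpx1*, the main cytosolic glutathione peroxidase, was the most abundant gene of the list, with 6404 and 5374 counts and a log2 ratio of 0.19. *Gpx4*, which reduces lipid peroxides, had 1437 and 983 counts (-0.11), and *Slc3a2*, the heavy chain of amino acid transporters, 1306 and 945 (-0.03). The enzymes of synthesis and recycling, named for their role with their values known, had log2 ratios of 0.08 for *Gclc*, -0.23 for *Gclm* (-0.37 to -0.08), -0.15 for *Gss* and -0.01 for *Gsr*.

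Among NRF2, its relatives and their targets, 30 of 31 genes had a mean of at least 1 CPM. Of these, 1 was higher and 0 were lower by at least 2-fold, beside 4.91% and 3.9% of all genes tested. The median log2 ratio was 0.03. The higher gene was *Hmox1*, the heme oxygenase gene, with 163 and 252 counts, 139.9 and 293.7 normalised counts and a log2 ratio of 1.06 (0.78 to 1.36). The ferritin genes *Ftl1* and *Fth1* were the most abundant, with log2 ratios of 0.09 and 0.22, followed by *Nfe2*, a CNC factor of blood cells, with 0.04. *Nfe2l2*, which encodes NRF2, and *Keap1*, its inhibitor, named for their role, had log2 ratios of 0.03 and 0.13. *Nqo1*, a much-used NRF2 target that was named in the same way, had 117 and 74 counts and a log2 ratio of -0.22 (-0.66 to 0.21).

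**Figure D5:**
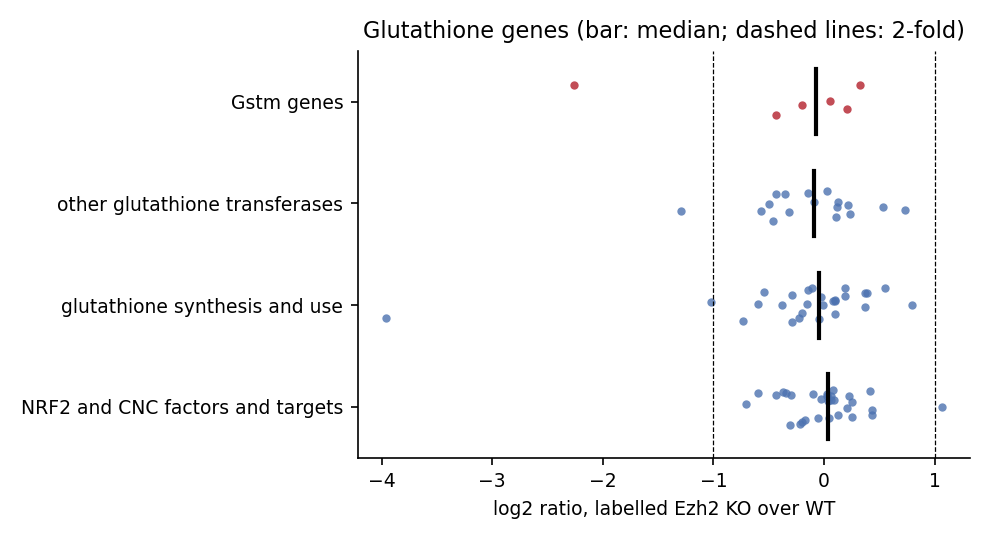
Log2 ratio (library labelled Ezh2 KO over WT) in 4 groups, 1 point for every gene that averaged 1 CPM or more, with vertical scatter for legibility only. Black bars mark medians (-0.07, -0.09, -0.05 and 0.03 from top to bottom) and dashed lines 2-fold, and *Gstm2* and *Gpx8* lie farthest to the left. The place of *Gpx8*, at 0 counts in one library, depends on the added 1 and is no estimate of its fold.

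The genes whose pair of levels was most like that of *Gstm2* were found by the distance in log2(normalised count + 1) over the 2 libraries. They were *Dusp5*, a phosphatase of ERK kinases (distance 0.71), *Mterf3*, a mitochondrial transcription regulator (0.72), *Myo6*, an unconventional myosin (0.74), *Gas2l1*, a cytoskeletal linker (0.74), and *Hes1*, a Notch target (0.74). All 5 had smaller drops than *Gstm2*, with log2 ratios from -1.24 (*Mterf3*) to -1.77 (*Hes1*). For *Gstm1* the nearest genes were *H2afz*, *Ncoa4*, *Gimap6*, *Srsf3* and *Trpc4ap*, at distances of 0.02 to 0.07. With 2 libraries, likeness of this kind says only that the levels are similar.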

How the data were processed

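Gene-level RNA-seq was available for 1 WT library and 1 library labelled Ezh2 KO. The authors deposited raw read counts per gene symbol. Per the study's methods and the submitters' processing notes, single-end reads were aligned to mm10 with TopHat2 2.0.13 and Bowtie2 2.1.0 using the iGenomes annotation, and StringTie is named for raw counts. The 5 closing entries of each file, for reads given to no gene, carry htseq-count names, which leaves the program and its use of strand uncertain. They held 56.1% and 56.9% of all entries and were kept out of library sizes.

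Counts were divided by DESeq2 1.42.0 median-of-ratios size factors (R 4.3.3), with a pseudocount of 1. Genes with a mean of at least 1 CPM were compared, and 2-fold was the threshold. With 1 library per group the spread between replicates cannot be estimated from these data, so no test was made. Intervals are exact 95% binomial (Clopper-Pearson) intervals of the 2 raw counts. The smallest detectable level, 3 counts, was 0.521 CPM in WT and 0.722 CPM in the other library. Positions and transcripts came from GENCODE M21 (GRCm38, the assembly of mm10), where 23376 symbols matched, and coding sequences were aligned with MAFFT. Transcript length was that of the longest APPRIS principal transcript.

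The members and lists were chosen with earlier results of these data known. Named genes are the members, *Ezh2*, the 5 nearest genes to *Gstm2* and to *Gstm1*, and in each list those past 2-fold and the 3 most abundant others. Beside the cluster they are the nearest gene on either side and those past 2-fold. Other names are marked as chosen for their role or after their values were seen. Markers are named as checks of the label. The procedure was tested on Poisson counts simulated from the means and depths of these data, with known changes put in. Such counts hold no spread between mice or from amplification, so this test covers the calculation only. Alternatives were TMM (edgeR 4.0.16) and total-count scaling, other pseudocounts, filters and folds, thinning of WT to equal depth, and other windows around the cluster.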

Additional observations from a re-analysis of the deposited data

Results flagged for a closer look

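Reads with more than one alignment, which lie outside the gene counts, made up 12.3% of all entries in the library labelled Ezh2 KO (exact 95% interval 12.25% to 12.29%). The share was 10.7% in WT (10.73% to 10.77%), so it was higher in the former library. These intervals hold counting error only, and 1 library per group gives no spread between libraries. Such reads are given as 1 total per library, and whether any came from the Gstm genes or their pseudogenes was not tested.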

How the results depend on the processing

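No paired analysis was possible because WT and Ezh2 KO are represented by 1 library apiece, without replicate numbers. Size factors without X, Y and lineage marker genes were an alternative added after the data were seen. Over the scaling, pseudocount and thinning alternatives and this one, the log2 ratio of *Gstm2* ran from -2.27 to -2.18, and every other detected member stayed within its counting interval. *Gstm2* was the 1 member past 2-fold in all 10 alternatives of that count. The log2 ratio of *Ezh2* ran from 0.08 to 0.31, the latter in the single thinning, which adds counting error of its own. Of 202 alternative values, 170 stayed within their interval or within 1.5 times.

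Among the 32 others, the summed log2 ratio was 0.027 without *Gstm2* and -0.35 without *Gstm1*, which shows its dependence on these members. Per kilobase, the *Gstm2* share in WT was 9.28%, and the *Gstm1* share was 66.5% in WT and 71.8% in the other library. Small counts past the threshold moved by a few genes. Over all 12588 genes tested, 491 were lower and 618 higher as reported. These counts were 1261 and 1321 at 1.5-fold, 116 and 198 at 4-fold, and 109 and 166 with the whole interval. They were 359 and 438 with a pseudocount of 5 and 465 and 651 with total counts. Without a filter they were 1098 and 1404 of 14855 genes. At 10 CPM they were 115 and 96 of 9670, and with thinning 493 and 608 of 12558. Other glutathione transferases lower numbered 0 with a pseudocount of 5, at 10 CPM, at 4-fold and with the whole interval past 2-fold, and 2 without a filter, against 1, while higher ones numbered 1 at 1.5-fold. Their median became 0.10 at 10 CPM. Glutathione genes lower numbered 1 with total counts, a pseudocount of 5, thinning, 10 CPM, 4-fold or the whole interval and 4 at 1.5-fold, against 2, with 1 higher without a filter and at 1.5-fold. NRF2 genes lower numbered 2 at 1.5-fold, and higher ones 0 with thinning, 4-fold or the whole interval. Beside the cluster, 1 gene was lower without a filter and at 1.5-fold and 3 within 1000 kb, while 2 were higher at 1.5-fold and 0 at 10 CPM, with the whole interval or within 250 kb. The causes were not tested beyond what each setting changes. Depth limits genes with few counts, such as *Gstm6* and *Gsto2*, and without replicates none of these values separates the genotype from the mouse or the library.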

Other observations

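Several genes of the detoxification lists, chosen after their values were seen, had counting intervals that left out 0 without reaching 2-fold. Among the glutathione transferases, *Mgst1*, a microsomal enzyme, was at 125.3 normalised counts in WT against 208.6 in the library labelled Ezh2 KO (log2 ratio 0.73, 95% interval 0.41 to 1.06). *Gstk1*, the kappa-class enzyme, was at 157.9 and 106.0 (-0.57, -0.95 to -0.20), and the theta-class genes *Gstt3* and *Gstt2* had log2 ratios of -0.46 and -0.35. Of the 17 genes tested in that list, 4 had such an interval, against 40.0% of all genes.

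Of the 4 ABCC transporter genes in the glutathione list, none passed 2-fold. The log2 ratio was -0.60 for *Abcc1* (-0.74 to -0.46), -0.29 for *Abcc4* (-0.54 to -0.05) and -0.73 for *Abcc5* (-1.08 to -0.40), and *Abcc2*, with 3 and 2 counts, was under the filter. *Ephx1*, which hydrolyses epoxides, had 209 and 94 counts and a log2 ratio of -0.71 (-1.08 to -0.35). *Glrx*, the cytosolic glutaredoxin, went the other way with 738 and 794 counts and a log2 ratio of 0.55 (0.40 to 0.69). In the glutathione list 13 of 27 genes had an interval that left out 0, with 9 below and 4 above. In the NRF2 list 15 of 30 had such an interval, with 6 below and 9 above. The share over all genes tested was 40.0%. Whether any of these differences exceeds the spread between mice was not tested, because each group has 1 library.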
